A study of Oryzias latipes with 6 samples.

Results

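Osteoblast and chondrocyte transcription factor genes were examined in the axial tissue of Japanese medaka (Oryzias latipes) larvae, as the vertebrae with the muscle, fat and dermis around them. The genes were chosen by symbol: sp7, every sox9, runx2 or runx3 row, sox5, sox6 and every symbol that starts with twist. That gave 10 of the 20459 genes in the authors' deposited table: sp7, sox9b, SOX9, sox5, runx3, twist1a, twist2, twist3, TWIST and twistnb. Of these, 6 were tested by the authors and 4 were not. The authors' deposited table has no row with the symbol runx2 or sox6. RefSeq's gene table for medaka does list a runx2 gene, on chromosome 24. SOX6A and SOX6B, given below, fall outside the rule. The symbol rule also drew in twistnb, named for lying next to a twist gene. It encodes an RNA polymerase I subunit and is no Twist factor.

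Orange-red Hd-dR embryos were exposed for 1 h, from about 4 hours post fertilization, either to the solvent DMSO at 0.1% or to 0.3 nM TCDD, a dioxin and a ligand of the aryl hydrocarbon receptor. The labels give no DMSO content for the TCDD group. Both groups were then raised in the same medium and diet to 20 days post fertilization. They were dissected free of head and viscera and sequenced as polyA RNA on the Ion Torrent PGM. Each group has 3 libraries, each made from a pool of 15 to 25 fish. The authors' deposited table holds 1 FPKM value per gene and group (reads per length of gene and size of library). No value per library, SD or read count can therefore be given, and whether groups overlap cannot be seen. The authors' q-value is the only measure of error, and a gene is called changed when q is below 0.05. The labels do not tell whether pools of a group were separate clutches, so q may not cover the spread between clutches.

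Bone and cartilage cells are set apart by a small circuit of transcription factors. Runx2 and, downstream of it, the zinc-finger factor Sp7 (osterix) drive mesenchymal cells into the osteoblast fate, and medaka that lack sp7 have defective bone. Sox9 drives the chondrocyte fate and, with its partners Sox5 and Sox6, activates type II collagen and other cartilage genes in mouse. Twist factors mark the mesenchyme of the sclerotome, which surrounds the notochord and gives rise to vertebral osteoblasts in fish, and in mouse they hold Runx2 in check. Zebrafish embryos given TCDD are known to lose sox9b transcripts in the forming jaw.

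The lineage factors sp7 and sox9b were called lower in TCDD-exposed fish, while runx2 had no row. None of the 3 tested Twist genes was called, which does not show that their levels were alike. By the authors' deposited table, 2 of the 6 tested genes of the set fell and 0 rose, beside 18.2% of all 3286 tested genes called in either direction. Of all tested genes in the authors' deposited table, 7.46% were called lower and 10.7% called higher. A share of 33.3% over 6 genes is 2 calls, too few to be read against that background. The median log2 fold change of the 6 was -0.15, beside 0.05 over all tested genes, and 3 of the 6 were higher in TCDD. Scaling both groups to equal totals, which adds 0.25 to every log2 fold change, turned that median to 0.10. This change of sign rests in part on the muscle gene pvalb1, which carries much of that scaling. It also depends on twistnb, which is no Twist factor. Without twistnb the middle value is that of TWIST (log2 -0.45), which stays negative with equal totals. The summed FPKM of all 10 genes in the authors' deposited table hardly moved, at 329 in DMSO and 332 in TCDD. That sum includes twistnb (58.4 and 82.8 FPKM), and without this gene it was lower in TCDD. The genes differed in direction among themselves.

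**Figure D1:**
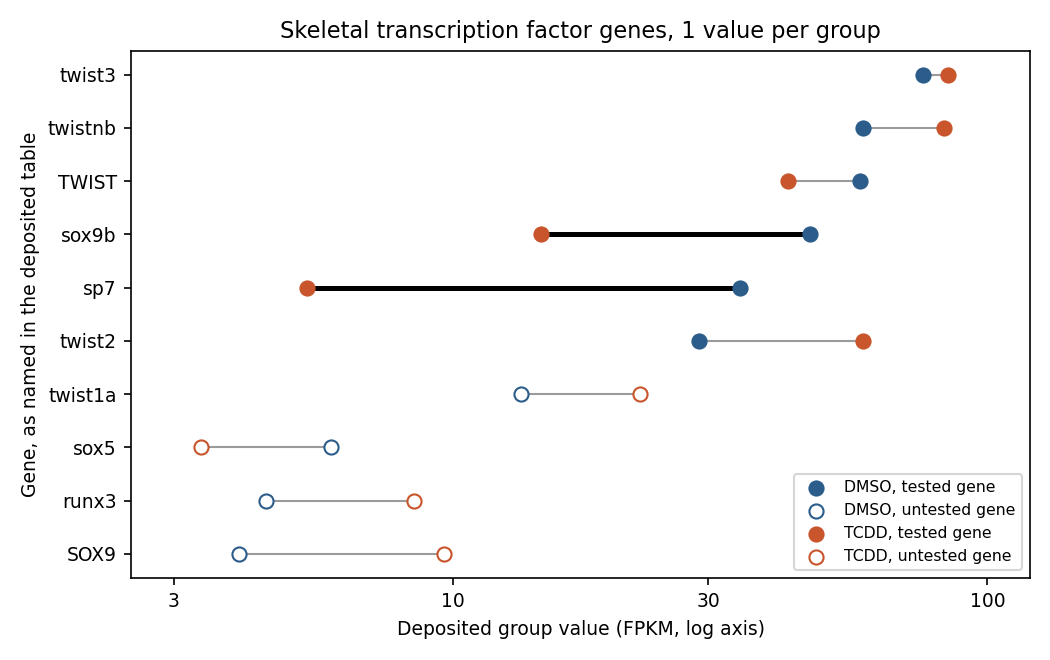
The authors' deposited FPKM (log axis) of the 10 genes in DMSO (blue) and TCDD (orange), ordered by the DMSO value; filled points are tested genes, open points untested ones, and thick black lines mark q below 0.05. The lines of sp7 (34.4 to 5.34 FPKM) and sox9b (46.6 to 14.6 FPKM) run to the left, as do the shorter ones of TWIST and sox5, and those of the other 6 genes run to the right.

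The osteoblast factor sp7 showed the largest change of the set. Its FPKM by the authors' deposited table was 34.4 in DMSO and 5.34 in TCDD, so that TCDD-exposed fish had 15.5% of the control level. The log2 fold change was -2.69 (authors' statistic -2.64, q = 0.0411). Among the 3262 tested genes above 0 in both groups of the authors' deposited table, sp7 ranked number 17 by size of fall. In this bulk tissue, fewer osteoblasts and less sp7 RNA per osteoblast cannot be told apart. The gene (ENSORLG00000005215) lies on chromosome 5 from 9068596 to 9071092, on a build not given in the sources used here, and no other row of the authors' deposited table overlaps it.

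The call for sp7 lies near the edge of what the authors tested. Its mean of 19.9 FPKM was among the 21 lowest of all tested genes in the authors' deposited table, whose median mean was 52.6 FPKM. A total of 50 called genes of the authors' deposited table, sp7 included, had a q of 0.0411 or more. Falls of this size were often not called. Among tested genes above 0 in both groups, 17 fell as far as sp7 or further. Of these 17, 9 passed q 0.05 by the authors' deposited table. At a threshold of 0.01 sp7 would not be called.

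The chondrocyte factor sox9b fell less far but with a smaller q. Its FPKM by the authors' deposited table was 46.6 in DMSO and 14.6 in TCDD, or 31.3% of the control level. The log2 fold change was -1.68 (authors' statistic -2.33, q = 0.00530). The q is smaller than that of sp7 although the statistic of sp7 is the larger in size, so q-values in the authors' deposited table do not simply follow the statistic. Among tested genes above 0 in both groups of the authors' deposited table, 84 fell as far as sox9b or further. Of these 84, 57 passed. The gene (ENSORLG00000007960) lies on chromosome 8 from 10783262 to 10785628 and overlaps no other row of the authors' deposited table.

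**Figure D2:**
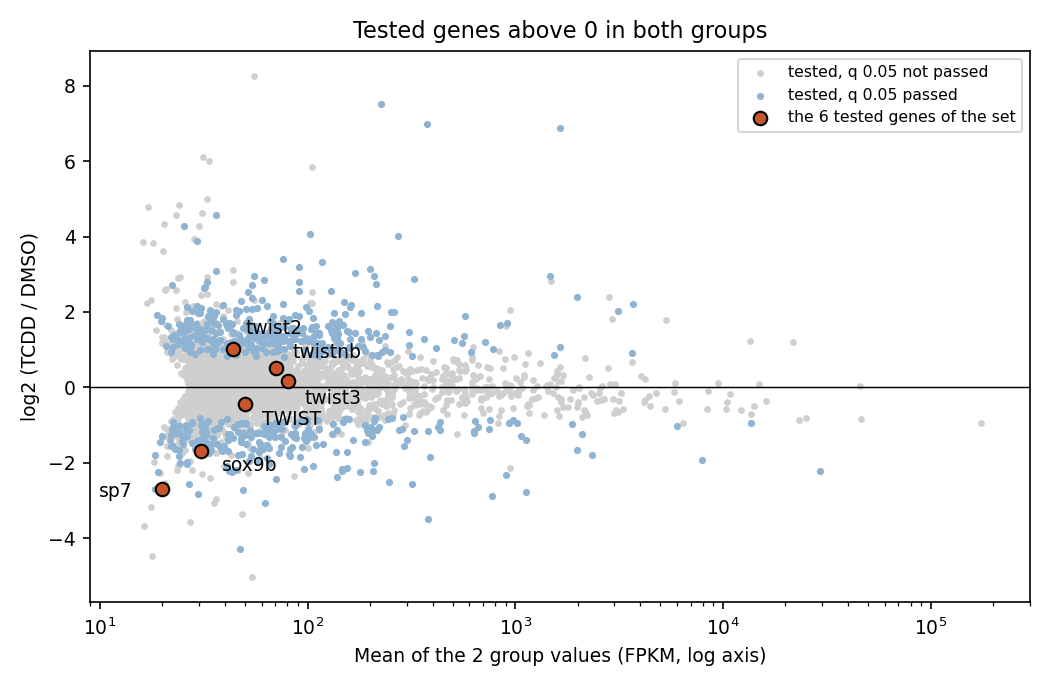
The log2 ratio of TCDD to DMSO against the mean of both group values (FPKM, log axis) for the 3262 tested genes above 0 in both groups; blue points passed q 0.05, grey points did not, and large orange points are the 6 tested genes of the set. The point of sp7 (mean 19.9 FPKM, log2 -2.69) lies at the low-expression edge, that of sox9b (30.6 FPKM, log2 -1.68) inside the called genes, and the points of the twist rows lie between log2 -0.45 and 1.02.

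A second row named SOX9 went the other way without a test. It had 3.97 FPKM in DMSO and 9.61 in TCDD in the authors' deposited table, a log2 difference of 1.27. This row (ENSORLG00000018597) sits on an unplaced piece, scaffold2680, from 1901 to 4662. Fish carry a pair of Sox9 genes, and the table does not say whether SOX9 is the second of them or a fragment, so reads could be split between both rows. Added together, both rows had 50.6 FPKM in DMSO and 24.2 in TCDD in the authors' deposited table, a log2 difference of -1.06. The share of sox9b in that sum was 92.1% in DMSO and 60.3% in TCDD.

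The Sox9 partner genes were low, and none was tested. The SoxD gene sox5 had 5.92 FPKM in DMSO and 3.37 in TCDD in the authors' deposited table (log2 -0.81). SOX6A and SOX6B, which carry a letter and so fall outside the symbol rule, were looked up after the values of the set were seen. SOX6A had 17.2 and 7.62 FPKM in DMSO and TCDD in the authors' deposited table. SOX6B had 6.11 and 4.03 FPKM there. These 3 rows were thus lower in TCDD, with a sum of 29.2 FPKM in DMSO and 15.0 in TCDD in the authors' deposited table, and none of these differences has a test. A further SoxD row, SOX13, had 8.57 FPKM in DMSO and 8.94 in TCDD by the authors' deposited table.

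Of the Runt family, runx3, which acts with Runx2 in cartilage maturation in mouse, had 4.46 FPKM in DMSO and 8.47 in TCDD in the authors' deposited table (log2 0.92, untested). The gene for the shared partner subunit of all Runx proteins, cbfb, had 70.4 and 47.0 FPKM (q = 0.300) by the authors' deposited table. The blood-forming factor runx1 had 1.93 FPKM in DMSO and was listed at 0 in TCDD in the authors' deposited table, without a test. Its fusion partner in leukaemia, runx1t1, had 2.06 and 1.32 FPKM by the authors' deposited table, at a locus shared with 3 other genes. Neither runx1 nor runx3 reached 10 FPKM in either group of the authors' deposited table.

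Among the transcription factor genes of the set, twist3 and TWIST had the highest DMSO levels, and none of the 3 tested Twist genes passed. Of the 4 Twist factor rows in the authors' deposited table, 3 were higher in TCDD and 1 was lower, and their sum was 176 FPKM in DMSO and 208 in TCDD. The dermal and mesenchymal factor twist2 had the largest difference of the Twist rows, from 28.8 to 58.5 FPKM by the authors' deposited table (log2 1.02, q = 0.246). Its neighbour in the order of DMSO levels, sp7, differed in the opposite direction. The fish gene twist3 was the highest of the set in both groups of the authors' deposited table, at 75.7 and 84.5 FPKM (log2 0.16, q = 0.790). TWIST had 57.8 FPKM in DMSO and 42.3 in TCDD in the authors' deposited table (log2 -0.45, q = 0.473), and the untested twist1a had 13.4 and 22.4 FPKM (log2 0.74). These q-values do not show that Twist levels were alike. The polymerase subunit gene twistnb had 58.4 and 82.8 FPKM (log2 0.50, q = 0.300) by the authors' deposited table.

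The Twist names differ between sources. In the authors' deposited table twist1a lies on chromosome 11, at 8932933 to 8934057, near twistnb at 8912755 to 8918143, and TWIST lies on chromosome 16 at 12859171 to 12859930. RefSeq's gene table for the ASM223467v1 assembly calls genes on both chromosomes twist1. It gives the synonyms twist and Twist1a to the one on chromosome 16. RefSeq also has a Twist3a gene on chromosome 5 and a Twist3b gene on chromosome 7. The only row named twist3 in the authors' deposited table lies on chromosome 5, so the Twist sum may lack a gene. The twist2 row covers 508 bp of chromosome 21 and the twist3 row 836 bp of chromosome 5 in the authors' deposited table, and on loci this short few reads can give the FPKM listed.

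The order of levels differed between the groups, and sp7 moved furthest in it. By the FPKM of the authors' deposited table, sp7 was number 5 of the 10 genes in DMSO and number 9 in TCDD. The gene sox9b moved from number 4 to number 6, twist2 from number 6 to number 3 and SOX9 from number 10 to number 7. Among all 20459 rows of the authors' deposited table, sp7 stood at percentile 87.6 in DMSO and 49.5 in TCDD, and sox9b at percentile 91.0 and 71.9. The percentile of twist3 was 94.4 and 94.7 in the authors' deposited table. With 1 value per group, it cannot be said which neighbours in these orders differ beyond their spread.

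Other genes had values much like those of the 2 fallen factors. Likeness was the distance between the pairs of log2 group values, over 2 groups only, among 2956 named tested genes above 0 in both groups. Closest to sp7 in the authors' deposited table was NR4A1 (2 of 2), an immediate early nuclear receptor gene, at 31.8 and 4.88 FPKM (distance 0.17, q = 0.0201). It was followed by s100t (distance 0.19, q = 0.558), slc43a1b (0.32, q = 0.0695), cyp27c1 (0.34, q = 0.0180) and nipsnap3 (0.54, q = 0.339) by the authors' deposited table. Of these 5 genes 2 passed q 0.05. Closest to sox9b in the authors' deposited table was fam214b, at 46.8 and 14.2 FPKM (distance 0.04, q = 0.0270). Next came cdca7a (distance 0.11, q = 0.0157), pr2y4l (0.11, q = 0.0313), tnnc1b (0.15, q = 0.119) and the type VI collagen gene col6a1 (0.17, q = 0.0328) by the authors' deposited table. Of those 5 genes 4 passed.

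The chromosomal surroundings of both genes held few tested genes. Within 250 kb of sp7 the authors' deposited table has 15 other rows, of which 3 were tested. A COL2A1A row, for the cartilage collagen, lies 190 kb away and fell, from 147 to 58.9 FPKM (q = 0.00105), and the stress factor gene ddit3, 163 kb away, rose from 61.1 to 165 FPKM (q = 0.00810) by the authors' deposited table. The relative of sp7 31.5 kb away, sp1, had 10.9 and 16.3 FPKM by the authors' deposited table and was not tested. Within 250 kb of sox9b there are 12 other rows and none was tested. They include SOX8, a gene of the same SoxE group, 223 kb away with 23.1 and 20.0 FPKM by the authors' deposited table.

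Close relatives of the set were taken from a list with 9 rows, of which cbfb alone was tested. Besides sp1, SOX8, SOX13, cbfb and the Runx rows, the Sp relatives sp3a and sp3b had 13.1 and 15.5, and 23.4 and 25.2 FPKM in DMSO and TCDD in the authors' deposited table. The limb factor gene sp8a had 7.89 and 15.2 FPKM by the authors' deposited table. Tested relatives outside that list, looked up after values were seen, include SP8 (1 of 2) and SOX11. SP8 (1 of 2) had 20.9 and 37.3 FPKM (q = 0.151) and SOX11 had 125 and 92.6 FPKM (q = 0.360) by the authors' deposited table.

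Bone matrix and mineral genes, listed as targets of osteoblast factors, were set beside sp7. The dissection also held muscle, fat and dermis, and which cells these values come from was not tested. The list of bone matrix and mineral genes has 25 rows in the authors' deposited table, of which 14 were tested, and 6 of these fell and 0 rose, or 42.9% called lower beside 7.46% of all tested genes. Their median log2 fold change was -1.14, beside 0.05 over all tested genes. The falls nearest in size to that of sp7 were those of the collagen genes col10a1 (log2 -2.88), col1a1b (-2.51) and col1a2 (-2.32) by the authors' deposited table (each q = 0.00105). A q of 0.00105 is the lowest listed, shared by the 157 tested genes with the smallest p, so it does not rank them. SPARC (log2 -1.20, q = 0.00105), a matrix protein, and the collagen-folding genes serpinh1b (-1.22, q = 0.00249) and fkbp10b (-1.03, q = 0.0131) also fell there. Of the rest, spp1 had log2 -1.09 (q = 0.0796), cthrc1b -0.57 (q = 0.358, at a locus shared with slc25a32b), alpl 0.13 (q = 0.817) and enpp1 0.73 (q = 0.104) by the authors' deposited table. The phosphatase gene phospho1 and the channel gene panx3, picked after their values were seen, differed more than sp7 (log2 -3.56 and -4.46). Neither passed (q = 0.214 and 0.389) by the authors' deposited table. The remaining tested rows, TNFRSF11B (log2 0.39) and crtap (0.10), were higher in TCDD and not called. In all, 10 of the 14 tested rows were lower and 4 higher in TCDD. Of the untested rows of the list, 9 were lower and 2 higher. These counts hold only for the symbols listed. The row opga, by its name an osteoprotegerin gene as TNFRSF11B is, lies outside the list and was looked up after values were seen. It was called higher in TCDD (log2 2.97) by the authors' deposited table.

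Cartilage genes were set beside sox9b in the same way. The authors' deposited table has 31 rows of the list, of which 10 were tested, and 6 fell and 0 rose, or 60.0% called lower beside 7.46% of all tested genes. The median log2 fold change was -1.32, beside 0.05 over all tested genes. Those that fell in the authors' deposited table were col11a2 (log2 -2.09, q = 0.00105), the matrilin gene matn3a (-1.75, q = 0.00105), the link protein gene hapln1a (-1.63, q = 0.00180), both COL2A1A rows (each -1.32, q = 0.00105 and 0.00316) and wwp2 (-0.93, q = 0.0262). The wwp2 locus holds the microRNA row ola-mir-140, and reads could be split between the COL2A1A rows. A second link protein row, HAPLN1, had log2 -1.35 (q = 0.123, at a locus shared with ASTL (3 of 12)), matn1 -0.33 (q = 0.542), cilp 0.04 (q = 0.935) and ctgfa 0.10 (q = 0.857) by the authors' deposited table. Both target lists were written with earlier results of these data known, so their falls are no independent support for those of sp7 and sox9b.

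**Figure D3:**
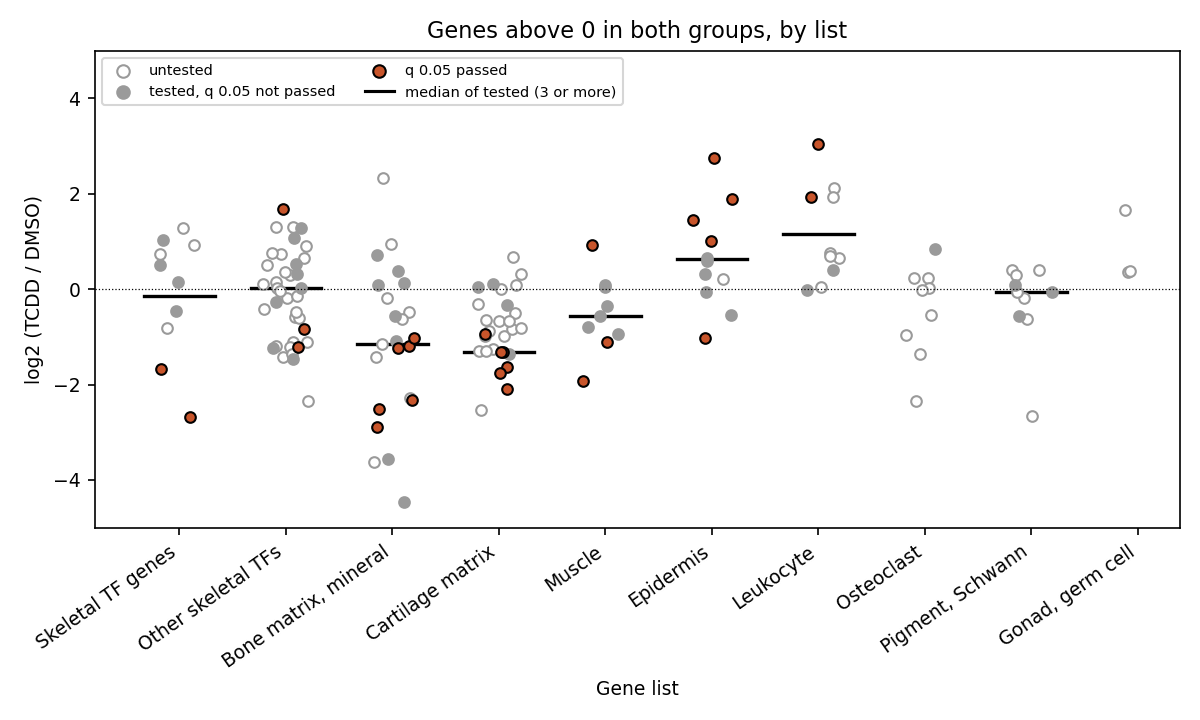
The log2 ratio of TCDD to DMSO for each gene above 0 in both groups, by gene list; open points were not tested, grey points did not pass q 0.05, orange points passed, and bars are medians over tested genes. The bone (median -1.14) and cartilage (median -1.32) lists lie mostly below 0, the 10 genes of the set spread from -2.69 to 1.27, and the leukocyte list (median 1.16) lies mostly above 0.

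Other transcription factors of the skeletal lineages differed in both directions. The authors' deposited table has 41 rows of this list, of which 11 were tested, and 2 fell and 1 rose (27.3% called, beside 18.2% of all tested genes). These 3 calls are too few to be read against that background. Their log2 fold changes ran from -1.47 to 1.69, with 6 higher and 5 lower in TCDD. The median was 0.03, -0.02 after centring on the median of all tested genes and 0.28 with equal totals, so its sign depends on the scaling. The homeobox gene dlx3b, active in skin and bone precursors, fell from 78.5 to 34.0 FPKM (q = 0.0245) by the authors' deposited table. The BMP target id1 fell from 312 to 175 FPKM (q = 0.0444), and xbp1, a factor of secretory cells, rose from 25.0 to 80.5 FPKM (q = 0.0360) by the authors' deposited table. The mesenchymal factor prrx1b had 67.5 and 97.2 FPKM (q = 0.299), and mef2cb 55.0 and 45.3 FPKM (q = 0.592) by the authors' deposited table. The rows etv5a (1 of 2) and etv5a (2 of 2) had log2 differences of 1.08 (q = 0.233) and 0.03 (q = 0.953) there.

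Markers of other cells in the dissection also differed between groups, and single rows carried much of several sums. Over all tested genes of the authors' deposited table, 18.2% were called (10.7% higher and 7.46% lower). The median log2 fold change over all tested genes was 0.05. The leukocyte, muscle and epidermis lists have 4, 9 and 10 tested rows, so their shares rest on few calls. In the authors' deposited table the leukocyte list summed to 196 FPKM in DMSO and 586 in TCDD over 13 rows, or 159 and 282 without il1b. Of its 4 tested rows 2 rose (il1b and ptprc), the median log2 fold change was 1.16, and lyz was listed at 0 in both groups. Muscle markers summed to 352855 and 222026 FPKM over 10 rows of the authors' deposited table, or 124630 and 102584 without pvalb1, which was not called (q = 0.0915). Of the 9 tested muscle rows 2 were called lower (mylpfa and myog) and 1 higher (desma), with a median of -0.56. Epidermal markers were higher in 7 of 10 tested rows of the authors' deposited table, with a median of 0.63, 4 called higher (cldne, cldni and both epcam rows) and 1 called lower (krt5). Their sum over 11 rows was 9915 FPKM in DMSO and 6994 in TCDD by the authors' deposited table, but 1878 and 3069 without krt5. Bone list rows summed to 4850 FPKM in DMSO and 1325 in TCDD, and cartilage list rows to 1031 and 541 FPKM, by the authors' deposited table. Without their leading collagen rows, col1a2 and a COL2A1A row, those sums were 3340 and 1024, and 884 and 482 FPKM. The part of these shifts in the lower sp7 and sox9b was not tested.

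Osteoclast rows summed to 174 and 209 FPKM over 11 rows of the authors' deposited table, or 103 and 82.8 without ctsk, the only one tested (q = 0.0558). Pigment and Schwann cell rows, where Sox9 relatives also act, summed to 453 and 375 FPKM over 13 rows of the authors' deposited table, or 202 and 204 without mbpa. Of these 3 were tested and 0 called, beside 18.2% of all tested genes, and mitfa and plp1a were listed at 0 in both groups. The gene sox9b is also known from the gonad of medaka, where it marks cells that support germ cells. Of 8 gonad and germ cell rows in the authors' deposited table none was tested, and dmrt1, dazl, nanos2, nanos3 and GNRH1 were listed at 0 in both groups. The other 3 were AMH with 3.06 and 3.95 FPKM, FOXL2 with 3.49 and 4.54 FPKM and vasa with 0.552 and 1.75 FPKM by the authors' deposited table. A listed 0 is not read as absence here, since lsm7, a splicing gene that every cell uses, had 128 FPKM in TCDD and was likewise listed at 0 in DMSO by the authors' deposited table. The part of gonad cells in the sox9b values was not tested.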

How the data were processed

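RNA of 3 DMSO and 3 TCDD libraries was sequenced by the authors. Bowtie2 2.2.6 and DESeq2 are named, without a role, per the submitters' processing notes. The deposited columns are laid out as Cuffdiff writes them, so the program behind the values is not settled. Per the file headers, the authors deposited 1 value per gene and group, read as FPKM, with a test score, its p-value and its q-value. For genome build, combination of libraries and depth per library the answer is the same: not given in the sources used here. Group values sum to 1315189 in DMSO and 1108805 in TCDD. Without the muscle gene pvalb1 they sum to 1086964 and 989363, so the scaling to equal totals rests in large part on that gene. Recomputed Benjamini-Hochberg values over all 3286 tested genes matched the q-values within 5.11e-07.

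The authors' test was used as it stands, since no value per library allows another. Log2 fold changes were recomputed without a pseudocount. The members and lists were chosen with earlier results of these data known. Genes named beside the set were those past q 0.05 in each list and up to 4 more with the highest mean; 1 list, of family relatives, was named whole. Other genes were chosen after their values were seen. Members of the muscle, epidermis, leukocyte, osteoclast, pigment and gonad lists are given by sums and called names. Tools were Python 3.11.15, pandas 2.3.3, numpy 2.4.6, scipy 1.17.1 and matplotlib 3.10.9, and the adjustments were tested on simulated data. Protein and promoter sequences were not used here.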

Additional observations from a re-analysis of the deposited data

Results flagged for a closer look

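The untested row SOX9 stood out because its value lies outside every test and was more than 2-fold higher in TCDD than in the controls, at 9.61 against 3.97 FPKM in the authors' deposited table, whereas sox9b fell. No other untested gene of the set reached a 2-fold rise, and the difference between both rows was not tested.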

How the results depend on the processing

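The 2 calls in the set depended on the adjustment: 2 passed at q 0.10, 1 (sox9b) at q 0.01 and 1 (sox9b, adjusted p = 0.0460) by Benjamini-Yekutieli, where sp7 had an adjusted p of 0.356. By Bonferroni 0 passed, an outcome fixed in advance. The smallest p listed, 5.00e-05, is too large for any of the 3286 tested genes to pass it. Likewise 0 passed when tested genes with a mean of at least 50 FPKM were adjusted alone. That filter removes both genes and leaves 3 of the set. Scaling both groups to equal totals put the log2 fold change of sp7 at -2.44 and of sox9b at -1.43, and the medians of the bone and cartilage lists at -0.90 and -1.08. Centring on the median of tested genes gave -2.74, -1.72, -1.19 and -1.37 in the same order, and a pseudocount of 1 gave -2.48, -1.61, -1.13 and -1.30. A mean of at least 50 FPKM put the bone list at -1.22 (7 genes) and the cartilage list at -1.32 (7 genes). Taking all rows above 0 in both groups, tested or not, gave -1.09 (23 rows) and -0.85 (28 rows). The directions of sp7, sox9b and the medians of both target lists were the same under these settings. For equal totals, centring and the pseudocount this was fixed in advance. The scalings shift values by less than the size of these falls, and a pseudocount keeps every sign. By contrast, the median of the 6 tested genes of the set, twistnb included (-0.15), was 0.10 with equal totals. Without twistnb the middle value, that of TWIST (-0.45), keeps its sign there. The scaling to equal totals itself rests in large part on pvalb1. The median of the other skeletal factors (0.03) was -0.02 after centring. No paired analysis was possible because the deposited table has 1 value per group and none per library, which also kept any library from being left out. Read depth is unknown, so how far counting error limits the low values of sp7, SOX9, sox5 and runx3 cannot be stated.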
